A study of Homo sapiens with 6 samples.

Results

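The HSP90 chaperone system and its regulator were followed in 10 genes: HSF1, HSP90AA1, HSP90AB1, HSPH1, HSPB1, BAG3, STIP1, AHSA1, FKBP4 and CHORDC1. They were chosen by symbol, after gene identifiers had been mapped to symbols, and with earlier results of these data known. These are 10 of the 60604 genes in the count table, and all 10 were among the 15022 genes with enough counts to be tested. RNA came from MIA PaCa-2, an established pancreatic carcinoma cell line labelled wild type. One group of 3 libraries came from cells given BP, black phosphorus, at 12.5 µg/ml. The other 3 came from cells given the same dose of BP together with 10 mg/ml Huaier, an extract of a medicinal fungus. All 6 libraries therefore carry BP, cells without BP and cells with Huaier alone were not analysed here, and the sources used here do not give the duration of treatment. The comparison addresses what Huaier changes in cells that already receive BP.

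HSP90 is the abundant ATP-driven chaperone of the cytosol, which finishes the folding of kinases, steroid receptors and many other client proteins. It works with co-chaperones that bring clients from HSP70, drive or slow its ATPase, or add a peptidyl-prolyl isomerase. HSF1 is the transcription factor that binds heat shock elements and induces chaperone genes under proteotoxic stress, and HSP70 and HSP90 in turn hold HSF1 inactive. Cancer cells often depend on HSF1 and HSP90 for growth.

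Libraries held 15657593 to 17036565 counts, and the 10 genes drew from 347 counts (CHORDC1 in BP+Huaier 1) to 57704 counts (HSP90AB1 in BP 2) in a library. BP+Huaier 3 stood apart from its group. On the first principal component of all tested genes, which held 72.4% of the variance, the BP libraries lay between -50.55 and -43.39, BP+Huaier 1 and 2 at 65.09 and 65.99, and BP+Huaier 3 at 11.46. The relation of counts to GC content also differed between libraries, and its values are given with the results it touches. Of 6 genes listed for epithelial carcinoma cells, KRT8, KRT18, KRT19 and the mesenchymal marker VIM had at least 3950 counts in every library. The epithelial marker EPCAM had at most 5 counts and CDH1 at most 2. Of the markers of other cells, the leukocyte genes PTPRC, CD3E and MS4A1 and the fibroblast genes DCN and LUM had 0 counts, and pancreatic acinar genes had at most 2. The summed levels of these marker lists, given in CPM (counts scaled to a library total of 1000000), were 554 to 603 CPM in BP and 389 to 419 CPM in BP+Huaier for fibroblasts, mostly from COL1A2. They were 45.1 to 49.2 and 22.0 to 28.9 CPM for leukocytes, mostly from CD14, and 19.0 to 23.2 and 10.5 to 12.5 CPM for endothelial cells, mostly from CDH5. The sums do not use TMM, edgeR's scaling between libraries, which the values of single genes do use. With TMM, COL1A2 (log2 fold change -0.27, adjusted p = 0.19 in edgeR) and CD14 (-0.57, adjusted p = 0.051) did not pass. CDH5 was lower (-0.58, adjusted p = 0.030 in edgeR). The fibroblast gene COL1A1 went the other way, from 1.34 ± 0.10 to 5.92 ± 0.65 CPM (adjusted p = 8.9e-04 in edgeR). The list for epithelial carcinoma cells summed to 5474 to 5754 CPM in BP and 4842 to 5756 CPM in BP+Huaier, mostly from VIM. Within it KRT18 (450.5 ± 14.1 and 771 ± 251 CPM, adjusted p = 0.037 in edgeR) and KRT19 (221 ± 11.5 and 454 ± 170.0 CPM, adjusted p = 0.017) rose. KRT8 (942 ± 70.4 and 1328 ± 488 CPM, adjusted p = 0.18 in edgeR) and VIM (3493 ± 165 and 3463 ± 334 CPM, adjusted p = 0.96) did not pass. Whether these levels bear on the chaperone genes was not tested. The 37 genes of the mitochondrial genome had 0 counts in all libraries, so their share could not serve as a sign of RNA quality. In such bulk RNA, fewer cells that express a gene and less RNA per cell cannot be told apart. The labels do not tie the libraries of 1 group to separate cultures, and the spread that p-values are set against may therefore be technical.

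Because HSF1 acts through a repeated sequence, the promoters were read for it. A heat shock element is built of the unit GAA in alternating orientation. The search was for 2 units (GAANNTTC or TTCNNGAA) and for 3 units, which is either of these with a further GAA or TTC in alternation after 2 more bases of any kind, so that every 3-unit match also holds 2-unit ones. Both strands were read, in the 250 bases before each RefSeq start on GRCh38.p14. Promoters of 8 of the 10 genes were in the table, all but those of HSF1 and FKBP4. A 3-unit element was present in 3 of the 8, HSP90AA1, HSP90AB1 and CHORDC1, and a 2-unit element in HSPB1 as well. Of all 27305 genes with a promoter, 0.557% held a 3-unit and 14% a 2-unit element (0.441% and 11.6% of 35116 starts). These matches are descriptions of sequence, and binding was not measured. The 4 stretches are printed 5′ to 3′ on the strand of the gene, with the matches in capitals, because they hold the letters HSF1 is known to bind and can be set beside the RNA levels that follow.
CHORDC1, chr11:90223083-90223112, minus strand, matches centred 44, 49 and 54 bases before the start: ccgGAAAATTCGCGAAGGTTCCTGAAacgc
HSP90AA1, chr14:102087111-102087140, minus strand, match centred 82 bases before 1 of its 2 starts: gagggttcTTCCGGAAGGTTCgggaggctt
HSP90AB1, chr6:44247693-44247865, plus strand, matches centred 106 and 159 bases before 1 of its 3 starts: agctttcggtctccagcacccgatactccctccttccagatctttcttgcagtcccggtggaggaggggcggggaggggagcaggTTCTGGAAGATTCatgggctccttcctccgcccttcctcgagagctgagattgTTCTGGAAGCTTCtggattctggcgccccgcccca
HSPB1, chr7:76302423-76302543, plus strand, 2-unit match centred 178 bases before the start: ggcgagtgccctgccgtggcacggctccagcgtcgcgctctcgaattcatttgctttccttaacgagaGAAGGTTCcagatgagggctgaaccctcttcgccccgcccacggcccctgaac
The CHORDC1 and HSP90AA1 stretches lie inside exons annotated on the same strand in GENCODE release 29, and that of CHORDC1 lies just upstream of the gene as the deposited table bounds it. The HSP90AB1 and HSPB1 stretches lie outside annotated exons, the former within the gene. In AHSA1, BAG3, HSPH1 and STIP1 these letters were not in the window. The same search found a 3-unit element in HSPA8, 2-unit elements alone in DNAJB1, HSPA1A and HSPA1B, and neither in DEDD2 and HSPA4. All of these are on the list of HSF1-induced genes below, so the absence of a match does not show that HSF1 leaves a gene alone.

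With Huaier, 5 of the 10 genes were higher and 0 lower: HSF1, the small heat shock protein HSPB1 and the co-chaperones FKBP4, AHSA1 and STIP1 rose by 1.41- to 1.78-fold. Neither cytosolic HSP90 gene passed the test, nor did HSPH1, BAG3 or CHORDC1. Calls are at a Benjamini-Hochberg adjusted p under 0.05 in edgeR's quasi-likelihood test over all genes, by which 14.4% of all genes tested were called higher and 15.0% lower. The 10 genes had a median log2 fold change of 0.49, beside -0.02 over all genes tested. In 6 of the 10, every BP+Huaier library was above every BP library, a pattern shown by 21.9% of all genes tested. The standard deviation (SD) of the level was larger in BP+Huaier than in BP for all 10. This was not particular to them. The weights per group that limma estimated over all genes tested were 2.17 for BP and 0.46 for BP+Huaier, a lower weight standing for more spread. In the plot of levels by library, BP+Huaier 3 is the lowest of its group for 7 of the genes and the highest for HSP90AA1, HSPH1 and CHORDC1.

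**Figure D1:**
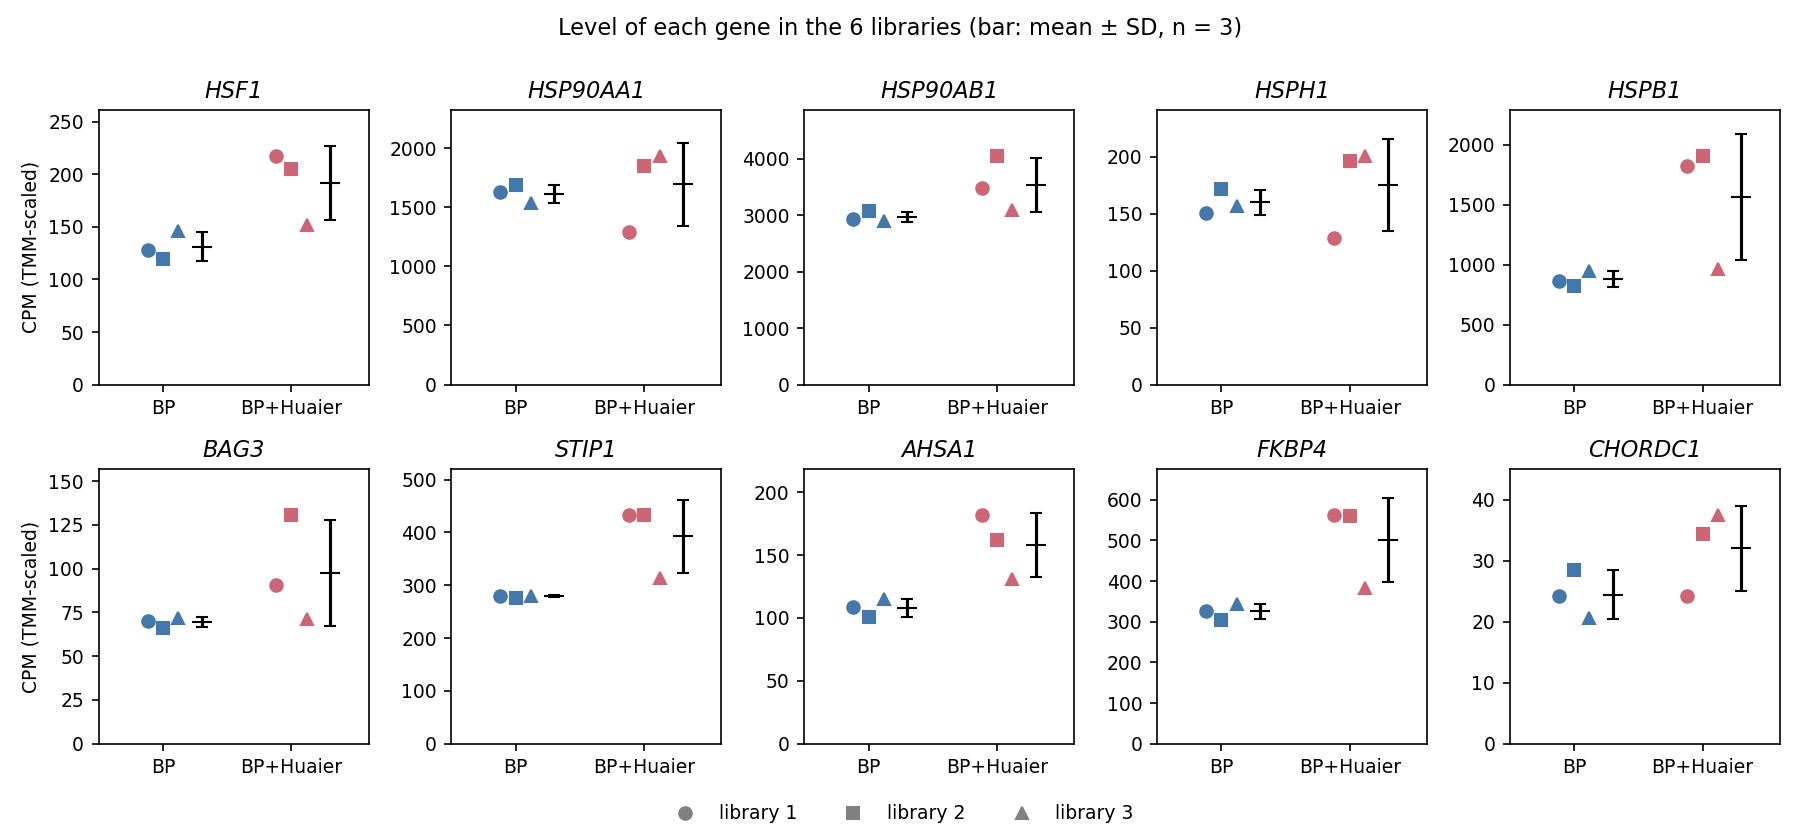
Level of each of the 10 genes in the 6 libraries, in CPM scaled by TMM on linear axes from 0; each symbol is a library and the bar is the mean ± SD of 3. For HSF1, HSPB1, STIP1, AHSA1, FKBP4 and HSP90AB1 every BP+Huaier point lies above every BP point, with BP+Huaier 3 nearest to BP.

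HSF1, the regulator, lies on chromosome 8 (chr8:144291591-144314720, GRCh38, identifier ENSG00000185122.11). Its level was 128, 119 and 146 CPM (scaled by edgeR's TMM factors, like all CPM values of single genes) in BP 1, 2 and 3, and 217, 205 and 151 CPM in BP+Huaier 1, 2 and 3. The groups did not overlap, but BP+Huaier 3 was only just above BP 3. The mean rose from 131 ± 13.6 to 191 ± 35.2 CPM (SD, n = 3 libraries), 1.46-fold (95% interval 1.12 to 1.90), with a log2 fold change of 0.55 ± 0.17 (SE) and an adjusted p of 0.040 in edgeR. HSF1 has the highest GC content of the 10, 64.7% in its longest transcript. With the trend on GC content and length removed from each library, a setting that called 19.1% of all genes higher, its log2 fold change was 0.13 and its adjusted p 0.27, so that the call was lost. The trend was fitted to each library's deviation from the mean of all 6 libraries. A change with Huaier that follows GC content or length would thus be removed too. A stretch of 137 exon bases of HSF1, 2.58% of its exon length, is shared with DGAT1 on the opposite strand, and no source used here gives the strand setting of the counting. DGAT1, an enzyme of triglyceride synthesis, rose as well, with a log2 fold change of 0.65 and an adjusted p of 0.022 in edgeR.

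HSP90AA1, the stress-inducible cytosolic HSP90 (chr14:102080742-102139699, ENSG00000080824.19), had 1624, 1685 and 1532 CPM in BP and 1294, 1851 and 1932 CPM in BP+Huaier. BP+Huaier 1 was the lowest of the 6 libraries and BP+Huaier 2 and 3 were the highest, so the groups overlapped on both sides. The means were 1614 ± 77.1 and 1692 ± 348 CPM, and the log2 fold change of 0.07 ± 0.18 did not pass the test (adjusted p = 0.79 in edgeR). Its 95% interval of 0.79- to 1.39-fold leaves room for a modest change either way. The direction was not stable: without BP+Huaier 3 the log2 fold change was -0.03, and with scaling by library size alone it was -0.18. HSP90AA1 shares 197 exon bases, 3.87% of its exon length, with WDR20 on the opposite strand, whose log2 fold change was -0.23 (adjusted p = 0.28 in edgeR).

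HSP90AB1, the constitutive cytosolic HSP90 (chr6:44246166-44253888, ENSG00000096384.20), had 2925, 3071 and 2899 CPM in BP and 3481, 4049 and 3095 CPM in BP+Huaier. Each BP+Huaier library was above each BP library, BP+Huaier 3 by a margin of less than the SD of BP. The means were 2965 ± 92.7 and 3542 ± 479.8 CPM, a 1.19-fold difference (95% interval 0.93 to 1.53) that did not pass the test (adjusted p = 0.25 in edgeR). Without BP+Huaier 3 it passed, with a log2 fold change of 0.36 and an adjusted p of 0.0020. With scaling by library size alone the log2 fold change was -0.02.

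The balance between the inducible and the constitutive HSP90 does not depend on scaling between libraries. The ratio of HSP90AA1 to HSP90AB1 counts was 0.555, 0.549 and 0.528 in BP and 0.372, 0.457 and 0.624 in BP+Huaier. It was below all BP libraries in BP+Huaier 1 and 2 and above them in BP+Huaier 3. The log2 ratio differed by -0.20 between groups (exact two-sided permutation p = 0.40, where 3 against 3 cannot go below 0.10). Pseudogenes of the cytosolic HSP90 genes, 11 in number, took at most 16 counts in any library, and adding them left the difference at -0.20.

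HSPB1, known as HSP27, is an ATP-independent small heat shock protein that holds unfolding proteins and binds the cytoskeleton (chr7:76302673-76304295, ENSG00000106211.10). Its levels were 862, 819.8 and 950.4 CPM in BP and 1823, 1905 and 960.1 CPM in BP+Huaier. BP+Huaier 1 and 2 stood far above BP, while BP+Huaier 3 lay next to BP 3. The mean went from 877 ± 66.6 to 1563 ± 523 CPM, 1.78-fold (95% interval 1.21 to 2.62), the largest rise among the 10 (log2 fold change 0.83 ± 0.25, adjusted p = 0.034 in edgeR). With the GC and length trend removed its log2 fold change was 0.49 and the call held (adjusted p = 0.029 in edgeR), with a GC content of 64.3%.

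Of 9 other small heat shock proteins and relatives, only IFT25, once named HSPB11, had enough counts to be tested. It had 16.2 ± 0.28 CPM in BP and 19.7 ± 0.55 CPM in BP+Huaier and did not pass the test (adjusted p = 0.15 in edgeR). CRYAB, the other widely heat-induced member, had at most 7 counts in a library, HSPB6 at most 18 and HSPB8 0. HSPB1 was thus the small heat shock protein of the family with the most counts in these cells.

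FKBP4, or FKBP52, is a peptidyl-prolyl isomerase that rides on HSP90 in steroid receptor complexes (chr12:2794970-2805423, ENSG00000004478.8). Its levels were 327, 305 and 343 CPM in BP and 562, 559.9 and 383 CPM in BP+Huaier. All BP+Huaier libraries were above BP, with BP+Huaier 3 closest to it. The rise was 1.54-fold (95% interval 1.17 to 2.03), from 325 ± 19.5 to 502 ± 103 CPM (log2 fold change 0.63 ± 0.18, adjusted p = 0.028 in edgeR).

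AHSA1, the co-chaperone that stimulates the HSP90 ATPase (chr14:77457870-77469472, ENSG00000100591.8), had 109, 101 and 115 CPM in BP and 182, 162 and 131 CPM in BP+Huaier. The groups did not overlap. AHSA1 rose 1.46-fold (95% interval 1.15 to 1.86), from 108 ± 7.08 to 158 ± 25.5 CPM (log2 fold change 0.55 ± 0.15, adjusted p = 0.028 in edgeR). Its 83 exon bases shared with VIPAS39 on the opposite strand are 2.82% of its exon length, and VIPAS39 had a log2 fold change of -0.03 (adjusted p = 0.90 in edgeR).

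STIP1, or HOP, bridges HSP70 and HSP90 and so hands over clients (chr11:64185272-64204543, ENSG00000168439.17). Its levels were 280.3, 277 and 280.1 CPM in BP, the tightest of the 10, and 433, 433 and 313 CPM in BP+Huaier. BP+Huaier 3 was above BP but well below the other 2 libraries of its group. STIP1 rose 1.41-fold (95% interval 1.10 to 1.80), from 279 ± 2.07 to 393 ± 69.2 CPM (log2 fold change 0.49 ± 0.16, adjusted p = 0.045 in edgeR). With the GC and length trend removed the log2 fold change was 0.28 and the adjusted p 0.051, just outside the threshold. By contrast FKBP4 and AHSA1, of 51.1% and 51.7% GC, kept 0.53 and 0.46 on the log2 scale with adjusted p values of 0.012 and 0.0056.

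CHORDC1, or morgana, binds HSP90 through zinc-binding CHORD domains and carries the densest heat shock element of the printed promoters (chr11:90200429-90223077, ENSG00000110172.12). It was the least abundant, with 24.3, 28.6 and 20.6 CPM in BP and 24.2, 34.4 and 37.5 CPM in BP+Huaier. BP+Huaier 1 lay within the BP range and the other 2 above it. The means of 24.5 ± 4.02 and 32.0 ± 6.93 CPM differed 1.31-fold (95% interval 0.96 to 1.79) and did not pass the test (log2 fold change 0.39 ± 0.20, adjusted p = 0.17 in edgeR). CHORDC1 has the lowest GC content of the 10, 35.0%, and with the GC and length trend removed it passed, with a log2 fold change of 0.74 and an adjusted p of 0.0022. It also passed without BP+Huaier 1 (adjusted p = 0.044 in edgeR).

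HSPH1, or HSP110, is a nucleotide exchange factor that resets HSP70 (chr13:31134973-31162388, ENSG00000120694.20). Its levels were 151, 172 and 157 CPM in BP and 128, 196 and 201 CPM in BP+Huaier. As for HSP90AA1, BP+Huaier 1 was the lowest library and BP+Huaier 2 and 3 the highest. The means were 160.0 ± 11.0 and 175 ± 40.6 CPM, and the 1.10-fold difference (95% interval 0.82 to 1.46) did not pass the test (adjusted p = 0.61 in edgeR). With the GC and length trend removed HSPH1, of 40.0% GC, had a log2 fold change of 0.39 and passed (adjusted p = 0.036 in edgeR), and by library size alone the log2 fold change was -0.12.

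The inducible HSPH1 was also set against its relative HSPA4, taken as constitutive though also on the list of HSF1-induced genes below. The ratio of their counts was 0.331, 0.350 and 0.356 in BP and 0.337, 0.444 and 0.449 in BP+Huaier. BP+Huaier 2 and 3 were above all BP libraries and BP+Huaier 1 lay within them. The log2 ratio differed by 0.24 (exact two-sided permutation p = 0.30, with 0.10 the smallest possible).

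BAG3, which links HSP70 to the small heat shock proteins and to selective autophagy (chr10:119651380-119677819, ENSG00000151929.10), had 70.1, 66.3 and 72.0 CPM in BP and 90.5, 131 and 71.5 CPM in BP+Huaier. BP+Huaier 3 lay within the BP range and BP+Huaier 2 was the highest by far. The means of 69.5 ± 2.93 and 97.5 ± 30.2 CPM differed 1.40-fold (95% interval 1.01 to 1.94) and did not pass the test (log2 fold change 0.49 ± 0.21, adjusted p = 0.10 in edgeR). Without BP+Huaier 3 the log2 fold change was 0.68 and the adjusted p 5.5e-04.

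The 5 calls had little margin. Each of HSF1, HSPB1, FKBP4, AHSA1 and STIP1 lost its call when any 1 of BP 1, BP 2, BP 3, BP+Huaier 1 or BP+Huaier 2 was left out, with adjusted p values from 0.063 to 0.160 in edgeR. Of all genes tested, those fits of 5 libraries called 5.27%, 5.46%, 6.61%, 11.4% and 6.08% higher, in that order, fewer than the 14.4% of all 6 libraries. Without BP+Huaier 3 the adjusted p values of these 5 genes were 2.0e-07 to 5.6e-05 and 7 of the 10 genes were called higher, with BAG3 and HSP90AB1 added, beside 28.8% of all genes tested. With scaling by library size alone none of the 10 was called in edgeR, beside 7.00% of all genes called higher and 19.7% lower, and the median over all genes was then -0.28 on the log2 scale. Beside that median, HSPB1 was at 0.53 and FKBP4 at 0.34. With the replicate number as a block, again none of the 10 was called (adjusted p values of 0.070 to 0.11 for these 5 genes in edgeR), beside 9.03% of all genes. A filter at 5 CPM left the calls of FKBP4 and AHSA1, with 14.3% of all genes called higher, and took those of HSF1, HSPB1 and STIP1 to adjusted p values of 0.052 to 0.066 in edgeR. DESeq2 called 5 of the 10 higher, as did limma with a weight per group and edgeR with DESeq2 size factors, beside 14.7%, 15.4% and 15.2% of all genes. Without a filter edgeR called 6, beside 9.09%.

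**Figure D2:**
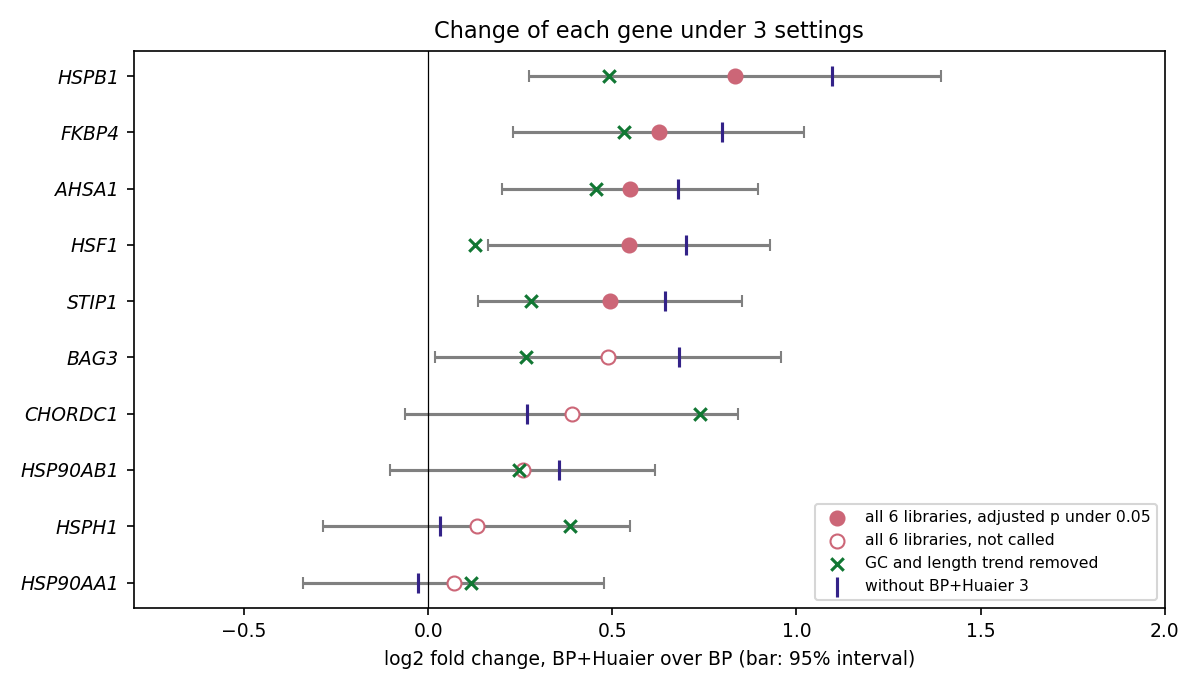
Log2 fold change of BP+Huaier over BP for each of the 10 genes, with its 95% interval as a grey bar; circles are filled where the adjusted p was under 0.05, crosses show values with the GC and length trend removed and ticks those without BP+Huaier 3. HSPB1 lies highest at 0.83, the cross of HSF1 falls to 0.13, and the crosses of CHORDC1 and HSPH1 lie to the right of their circles.

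Several of the 10 genes moved together over the 6 libraries. The log2 levels of HSF1, HSPB1, STIP1, AHSA1 and FKBP4 correlated with each other at Pearson r of 0.95 to 0.99. HSP90AA1 and HSPH1 correlated at 0.97 with each other and at 0.79 and 0.82 with CHORDC1, but HSP90AA1 and HSF1 at -0.29. HSP90AB1 and BAG3 correlated at 0.96 with each other and at 0.77 to 0.91 with HSF1, HSPB1, STIP1, AHSA1 and FKBP4. These are descriptions over 6 libraries that share the contrast between groups and the differences in base composition.

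HSF1, HSPB1, STIP1, AHSA1 and FKBP4 have GC contents of 51.1% to 64.7%, and HSP90AA1, HSPH1 and CHORDC1 of 35.0% to 45.2%. Against the mean of BP, the log2 ratios of the 10 genes in BP+Huaier 1 correlated with GC content at Pearson r = 0.80 (Spearman rho 0.71, n = 10 genes), and in BP+Huaier 2 at 0.72 (0.78). In BP+Huaier 3 the relation had the opposite sign, -0.70 (-0.66). The number of genes above the BP mean was 7 in BP+Huaier 1 and 10 in both BP+Huaier 2 and BP+Huaier 3. Over 14896 genes, the log2 levels of each library relative to the mean of BP (of the other 2 BP libraries where the library was itself BP) correlated with GC content at 0.03, -0.44 and 0.42 in BP 1, 2 and 3 and at 0.39, 0.27 and 0.03 in BP+Huaier 1, 2 and 3, so BP libraries also differed from one another in it. A correlation does not give the size of the deviations. For HSF1, of the highest GC content, the log2 ratio to the BP mean was -0.14 to 0.15 in BP. In BP+Huaier 1, 2 and 3 it was 0.73, 0.65 and 0.21. For CHORDC1, of the lowest, the values were -0.25 to 0.22 and then -0.01, 0.49 and 0.62. Genes are not independent replicates, and what part GC content plays in the changes beyond the values with the trend removed was not tested.

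**Figure D3:**
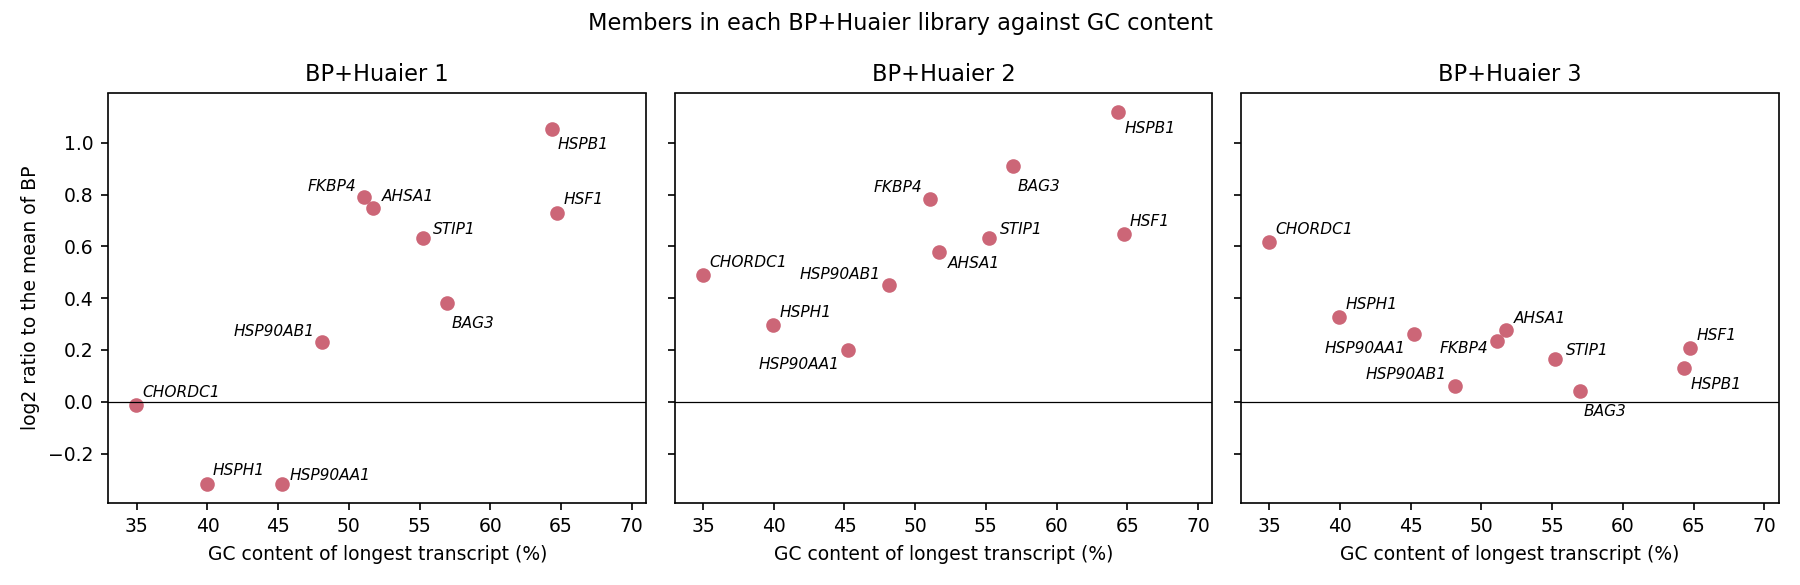
Log2 ratio of each of the 10 genes to its mean in BP, in each BP+Huaier library, against the GC content (%) of its longest transcript; each point is a gene. The points climb with GC content in BP+Huaier 1 and 2 (Pearson r 0.80 and 0.72) and descend in BP+Huaier 3 (-0.70).

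Among 10590 genes of at least 5 CPM, the 5 whose log2 level followed HSPH1 most closely over the 6 libraries included CTNND1, SLC39A6, TPMT and TIAM1, with Pearson r of 0.984 to 0.992. For HSF1 they were FBXL15, R3HDM4, TOR2A, JUP and IMP4, all at 0.998.

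Per exon length, scaled to the same total in each library, the order of levels in BP was led by HSP90AB1 (4271 ± 228 TPM, the share per exon length scaled to 1000000), followed by HSPB1 (2317 ± 119) and HSP90AA1 (1360 ± 97.1). FKBP4 (269.9 ± 10.2 TPM) and STIP1 (260.2 ± 5.02) overlapped, as did BAG3 (108.8 ± 2.42) and HSF1 (105.9 ± 8.39). AHSA1 lay between these pairs at 157 ± 6.72 TPM, and HSPH1 (81.9 ± 6.97) and CHORDC1 (9.48 ± 1.77) came last. The constitutive HSP90 was thus above the inducible one per length, and all the co-chaperones were below both. In BP+Huaier the order differed only in that HSF1 (120.3 ± 3.71 TPM) and BAG3 (118.3 ± 25.5) changed places within their overlap. HSPB1 (3153 ± 640.2) reached into the range of HSP90AB1 (4000.5 ± 397.8), while FKBP4 (323.1 ± 16.8) and STIP1 (284.8 ± 5.96) no longer overlapped. These values are scaled by the library total, not by TMM, and lengths are those of all annotated exon bases.

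Of 28 other HSP90 co-chaperones and organelle HSP90s, all tested, 3 rose and none fell, beside 14.4% and 15.0% of all genes tested, with a median log2 fold change of 0.32. CDC37L1, a relative of the kinase co-chaperone CDC37, rose 1.55-fold from 11.2 ± 1.35 to 17.3 ± 0.34 CPM (adjusted p = 0.017 in edgeR). The HSP90-bound phosphatase PPP5C rose from 83.7 ± 4.48 to 123 ± 25.1 CPM (adjusted p = 0.038 in edgeR). PPP5C lost its call without BP 1, BP 2, BP 3, BP+Huaier 1 or BP+Huaier 2, and CDC37L1 without BP 1, BP 3 or BP+Huaier 2. Scaling by library size alone took the calls of PPP5C and CDC37L1 (adjusted p = 0.13 and 0.14 in edgeR). That of PPP5C was also lost with the replicate number as a block and with a filter at 5 CPM (adjusted p = 0.078 and 0.059 in edgeR). The kinase co-chaperone CDC37 itself had 207 ± 21.4 and 277 ± 59.3 CPM (adjusted p = 0.11 in edgeR), and p23, encoded by PTGES3, had 327 ± 36.7 and 461 ± 86.8 CPM (adjusted p = 0.058 in edgeR). The endoplasmic reticulum HSP90, HSP90B1, had 528 ± 56.4 and 651 ± 180.5 CPM (adjusted p = 0.30 in edgeR). The count moved with the library left out: without BP+Huaier 3, 18 of the 28 rose and 3 fell (28.8% of all genes rose), without BP 1 or BP+Huaier 2 none was called, without BP 2 or BP 3 there was 1 and without BP+Huaier 1 there were 2. With the GC and length trend removed 11 rose, beside 19.1% of all genes.

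Of 21 other genes that HSF1 is known to induce on heat shock, 20 could be tested. Of these, 11 rose, 1 fell and 8 did not pass, beside 14.4% of all genes higher and 15.0% lower. Their median log2 fold change was 0.78. This list, like the others, was chosen with earlier results of these data known, so its counts are a description. HSPA1A, the inducible HSP70, had 34.4, 35.0 and 36.4 CPM in BP and 95.7, 341 and 67.6 CPM in BP+Huaier, a 4.76-fold rise (adjusted p = 0.014 in edgeR). Its near-identical neighbour HSPA1B rose 4.08-fold (adjusted p = 0.019 in edgeR), and reads of this pair may have been split between them. Both peaked in BP+Huaier 2, and without that library their log2 fold changes were 1.22 and 1.04, beside 2.25 and 2.03 with it. The calls of both were lost without BP 1, BP 2 or BP 3, at adjusted p values of 0.052 to 0.081 in edgeR.

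DNAJB1, the HSP40 that works with HSP70 and restrains HSF1, had 295, 311 and 302 CPM in BP and 993, 2063 and 662 CPM in BP+Huaier. It rose 4.09-fold (log2 fold change 2.03 ± 0.36, adjusted p = 0.0051 in edgeR). The death-effector protein gene DEDD2 rose 3.75-fold from 42.9 ± 3.51 to 161 ± 92.4 CPM (adjusted p = 0.0067 in edgeR), and IER5, an immediate early gene whose product acts on HSF1, rose 2.86-fold from 15.8 ± 1.83 to 45.3 ± 10.8 CPM (adjusted p = 0.0019 in edgeR). DNAJB1, DEDD2 and IER5 were called under all 14 other settings. Without BP+Huaier 2 the log2 fold changes of DNAJB1 and DEDD2 were 1.46 and 1.39. The other genes that rose included the ubiquitin gene UBB, JMJD6, the constitutive HSP70 HSPA8, SERPINH1 and MRPL18. The HSP110 relative HSPA4L fell from 15.8 ± 1.92 to 9.99 ± 2.26 CPM, 1.57-fold (adjusted p = 0.039 in edgeR). That call was lost without any 1 of the libraries but BP+Huaier 3. It was also lost with the GC and length trend removed and with the replicate number as a block. The number that rose was 5 without BP 1, BP 2 or BP 3 (5.27%, 5.46% and 6.61% of all genes), 10 without BP+Huaier 1 (11.4%), 7 without BP+Huaier 2 (6.08%) and 13 without BP+Huaier 3 (28.8%).

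The 10 genes were also set against DNAJB1 within each library, a comparison chosen after the values had been seen. The ratio of DNAJB1 to HSP90AA1 counts was 0.182, 0.184 and 0.197 in BP and 0.768, 1.11 and 0.342 in BP+Huaier, and that of DNAJB1 to HSPH1 was 1.96, 1.81 and 1.92 in BP and 7.73, 10.5 and 3.30 in BP+Huaier. The ratio of DNAJB1 to the gene was 2.14-fold higher in BP+Huaier for HSPB1 and 3.54-fold higher for HSP90AA1, with the other 8 genes between these. As DNAJB1 was picked for its rise, these ratios are a description.

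**Figure D4:**
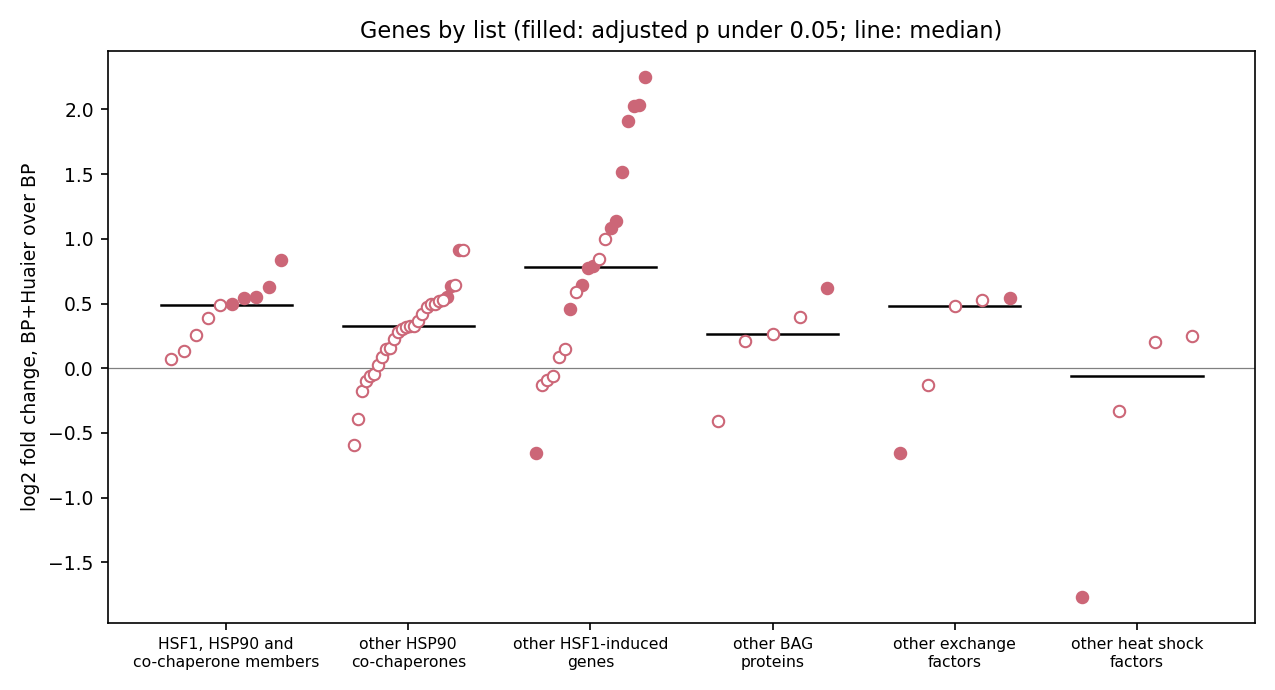
Log2 fold change of BP+Huaier over BP for the 10 genes and for the tested genes of 5 other lists, 1 circle a gene, filled where the adjusted p was under 0.05, with the median of each list as a line. The HSF1-induced list reaches above 2 and has its median at 0.78, while the 10 genes lie between 0.07 and 0.83.

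Among 4 tested relatives of HSF1 and their binding proteins, none rose. HSF2 had 20.4 ± 2.42 CPM in BP and 24.3 ± 5.80 CPM in BP+Huaier (adjusted p = 0.35 in edgeR), HSF4 had 7.80 ± 1.78 and 6.13 ± 4.02 CPM (adjusted p = 0.56 in edgeR). The HSF1 inhibitor HSBP1 had 94.0 ± 4.41 and 108 ± 16.9 CPM (adjusted p = 0.32 in edgeR). HSF2BP, which binds HSF2 and is best known from meiosis, fell from 1.23 ± 0.48 to 0.37 ± 0.14 CPM (log2 fold change -1.76 ± 0.48, adjusted p = 0.024 in edgeR), on at most 33 counts in a library. Its call was lost without BP 1, BP 2, BP+Huaier 1 or BP+Huaier 2, and in limma with a weight per group (adjusted p = 0.073). Other settings moved 3 of these genes past the threshold: HSF2 was higher with the GC and length trend removed (log2 fold change 0.45, adjusted p = 0.023 in edgeR), and without BP+Huaier 3 HSBP1 was higher (0.33, adjusted p = 0.0092) and HSF4 lower (adjusted p = 0.0034). HSF5 had at most 2 counts and was not tested.

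Of the 5 other BAG proteins, 1 rose. BAG6, which guards newly made membrane proteins in the cytosol, went from 382 ± 14.7 to 588 ± 116 CPM, 1.54-fold (adjusted p = 0.026 in edgeR). Of 5 other exchange factors of HSP70-type chaperones, HYOU1 of the endoplasmic reticulum rose 1.46-fold from 187 ± 6.99 to 272 ± 32.9 CPM (adjusted p = 0.020 in edgeR), HSPA4L fell as given above, and HSPA4 had 463 ± 26.2 and 423 ± 36.9 CPM (adjusted p = 0.49 in edgeR). Over all 70 genes of the lists, 61 were tested, 16 rose, 2 fell and 43 did not pass, beside 14.4% of all genes higher and 15.0% lower, with a median log2 fold change of 0.37. BAG6 lost its call without any 1 of the libraries but BP+Huaier 3, and HYOU1 without BP 1, BP 2, BP 3 or BP+Huaier 2. With the replicate number as a block both calls were lost (adjusted p = 0.068 and 0.070 in edgeR). HYOU1 also lost its call with scaling by library size alone (adjusted p = 0.062 in edgeR).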

How the data were processed

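RNA from 6 libraries of MIA PaCa-2 cells was read as 150 bp pairs, per the labels' protocols. The authors deposited raw counts per gene, made with fastp 0.20.0, HISAT2 2.1.0 and featureCounts 1.6.1 on GRCh38, per the submitters' processing notes. The sources used here give no annotation release and no settings for strand, multi-mapped or overlapping reads. From the table, 44 second copies of genes on chromosome Y (0 counts) and the 3 pieces of a broken line of 1 gene were left out. Symbols matched 99.77% of identifiers. GENCODE release 29 gave biotypes, exon overlaps and GC content (longest transcript), and RefSeq on GRCh38.p14 the promoters.

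Tests used edgeR 4.0.16 in R 4.3.3: filterByExpr by group, TMM, a robust quasi-likelihood fit on group alone, and Benjamini-Hochberg adjustment over all 15022 genes tested. The common biological coefficient of variation was 18.1%. Ratios within a library were tested by exact permutation. Likeness was the Pearson correlation of log2(CPM + 1). Totals of 15657593 to 17036565 counts set the counting error, and precision for these genes is limited by the spread between libraries.

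Alternatives were other scalings (DESeq2 size factors, library size alone), DESeq2 1.42.0, limma 3.58.1 (voom with a weight per group), no filter or a mean of at least 5 CPM, the replicate number as a block, removal of a spline trend on GC and length, each library left out, and an adjusted p under 0.01. The scripts were tested on simulated counts. The rule named all 10 genes, the heat shock factor list, up to 5 called genes of at least 5 CPM per other list by size of change, the 5 genes most like HSPH1 and HSF1, and genes sharing exon bases with the 10. Some genes that the rule names are not reported here. Other genes were named after their values were seen. The genes and lists were chosen with earlier results of these data known.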

Additional observations from a re-analysis of the deposited data

How the results depend on the processing

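Of the 10 genes, 5 were called higher with DESeq2 size factors, DESeq2, limma with a weight per group or the GC and length trend removed, and under the last HSF1 and STIP1 gave way to CHORDC1 and HSPH1. With library size alone as the scaling, 0 of the 10 and 10 of the 70 list genes were called higher, and 1051 of all genes higher and 2959 lower, beside 2160 and 2246 with TMM. At least 5 CPM gave 2 of the 10 higher, and 1 list gene and 1357 genes lower. Without a filter 27 list genes were higher and 4 lower, and with the trend removed 29 and 1. An adjusted p under 0.01 gave 0 of the 10, 5 list genes higher and 0 lower, and 826 genes higher and 810 lower. Leaving out 1 library gave 0 to 7 of the 10, 5 to 37 list genes higher and 0 to 7 lower, and 810 to 4452 genes higher and 909 to 4793 lower. Deviations from the group mean correlated at 0.009, -0.056 and -0.276 between same-numbered libraries, and at -0.256 to 0.256 between the others. With 3 libraries in a group, these values cannot tell whether a shared number marks a shared culture. With the replicate number as a block, 0 of the 10, 11 list genes higher and 1 lower, and 1357 genes higher and 1742 lower were called, and the block gave p = 0.50 for the HSP90AA1 to HSP90AB1 ratio and 0.25, the smallest 3 pairs allow, for HSPH1 to HSPA4 (exact sign-flip permutation). Log2 fold changes that turned sign were those of HSP90AA1 (-0.18 with library size alone, -0.018 at 5 CPM, and -0.027 without BP+Huaier 3 in a range up to 0.24 over the libraries left out), of HSP90AB1 (-0.018), HSPH1 (-0.12) and HSBP1 (-0.073) with library size alone, and of HSF4 (0.0063 without BP+Huaier 1, in a range from -1.003). The log2 differences of the ratios spanned -0.40 to -0.03 and 0.16 to 0.37 when 1 library was left out. Without division by length, 4 of the 10 genes kept their place in the order of levels. The heat shock element count was 3 also in 300 bases reaching 50 past the start. What caused these differences between settings was not tested.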

Other observations

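AHSA2P, a pseudogene relative of AHSA1 named after its values were seen, did not follow it. It had 28.0, 24.7 and 31.8 CPM in BP and 12.3, 13.5 and 41.2 CPM in BP+Huaier. BP+Huaier 1 and 2 were below all BP libraries and BP+Huaier 3 was above them, and the log2 fold change of -0.33 ± 0.41 did not pass the test (adjusted p = 0.57 in edgeR).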
